A study of Mus musculus with 9 samples.

Results

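The comparison described here sets mice that lost 1 allele of Prdm16 against wild-type mice, across all genes of an expression array. It uses 6 of the 9 arrays of the study: 3 of Prdm16LacZ/+ (HET) and 3 of Prdm16+/+ (WT). The 3 arrays of Prdm16LacZ/LacZ (KO) lent only their spread to the fit and appear beside some values. Every probe set with exactly 1 gene symbol was considered, and for each gene the probe set whose mean was highest across all 9 arrays was read, which gave 19938 genes from 28940 probe sets. All mice were newborns of the C57BL/Ka strain, and the cells were ventricular zone cells dissected from the brain, neither cultured nor treated. The labels give a LacZ allele and name no Cre driver or promoter, so the loss is not described as limited to a cell type or a time, and how the allele disrupts the gene is not stated in them. The labels do not say whether an array stands for 1 animal or a pool, nor whether arrays came from separate litters, so p-values describe only how these arrays varied, and that variation may be technical.

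PRDM16 is a zinc finger transcription regulator of the PR-domain family. In the developing brain it is made by radial glia, the progenitors that line the ventricles and give rise to neurons, astrocytes and ependymal cells. It is also known for switching on the brown fat programme in adipocytes and for supporting blood and neural stem cells. A heterozygous loss leaves 1 working copy, and the question of the comparison is which transcripts differ when only that copy is present.

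No gene passed the test in HET against WT. The smallest adjusted p was 0.993 (limma, Benjamini-Hochberg over 19938 genes), and 0% of genes were called at an adjusted p under 0.05. Without adjustment 808 genes, 4.05% of all genes, had a limma p under 0.05. Evenly spread p-values, as with no difference in any gene, would put a larger share, 0.05 of all genes, there. Of the 808 genes 478 lay higher in HET, which is 2.4% of all genes, and 330 lay lower, which is 1.66%. At an unadjusted limma p under 0.01 there were 107 genes, and under 0.001 there were 6. Every HET array lay above every WT array for 748 genes (3.75%) and below every WT array for 618 genes (3.1%). Arrays in random order, without ties, would put a larger share, 0.05 of all genes, on each side. A lack of overlap in a single gene is therefore common, the more so in genes named for a small p. The measured shares are the background for every count given further on, and no gene below is described as having risen or fallen in HET.

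The differences were small for nearly all genes. The median absolute difference was 0.0726 on the log2 scale, with a lowest percentile at -0.30 and a highest at 0.37. A difference of 1.5-fold or more was measured for 28 genes higher and 13 lower in HET, and of 2-fold or more for 4 and 3. The 3 lower by 2-fold or more were the Y-linked genes Eif2s3y, Kdm5d and Uty. Among the HET arrays each was low in replicate 1 alone, at 4.03, 4.92 and 4.01. KO against WT had the same median absolute difference but wider tails, with 55 genes higher and 107 lower by 1.5-fold or more. The median half-width of a gene's 95% interval for HET minus WT was 0.23, a 1.17-fold difference. For 19838 genes (99.5%) the whole interval lay within a 2-fold difference either way, so a larger difference in those genes lay outside the interval.

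The arrays also varied within a genotype. The SD over a genotype's arrays had a median across genes of 0.077 in WT and 0.117 in HET. Values identical in 2 or 3 arrays of a genotype occurred for 21.2% of genes in WT and 14.9% in HET. The effect of such ties on the SDs was not tested. Between 76 and 107 genes of a WT array stood at least 0.5 log2 units from the mean of the other 2 arrays of its genotype, against 389 to 824 in a HET array. Among the HET arrays replicate 1 stood furthest from the other 2, with 568 of its 824 such genes on the low side. Across genes, which are not independent replicates, it was also the HET array that correlated best with WT, at r from 0.9947 to 0.9949 against 0.9925 to 0.9933 for HET replicate 2 and 0.9907 to 0.9921 for HET replicate 3. Sex-linked transcripts also divided the arrays. Xist, the RNA of the inactive X chromosome, was at 10.04, 4.44 and 4.70 in WT and at 10.73, 4.64 and 4.99 in HET. Eif2s3y, a gene of the Y chromosome, was at 8.47, 8.98 and 8.70 in WT and at 4.03, 9.13 and 8.99 in HET. HET replicate 1 was thus the only HET array with high Xist and low Eif2s3y, while WT replicate 1 had both high. The part of sex in the results that rest on HET replicate 1 was not tested beyond the fits named below.

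Markers of the labelled tissue were present. The radial glia genes Fabp7 (mean over 9 arrays 11.88), Vim (10.59), Slc1a3 (10.31) and Sox2 (9.24) and the neuron genes Tubb3 (11.24) and Dcx (11.02) were measured far above the lower end of the scale, which was 2.72 for the dimmest gene. Markers of other tissues spanned a wide range: in muscle Myh3 had a mean of 3.98, Acta1 of 5.81 and Ckm of 6.17, and in liver Alb had 4.03 and Apoa1 5.66. Choroid plexus markers ran from Clic6 at 4.22 through Kl and Folr1 at 4.85 and 5.52 to Ttr at 6.12. Red blood cell markers ran from Hbb-y at 4.48 to Alas2 at 6.59, and the astrocyte markers were Gfap at 4.75, Aqp4 at 6.60 and Aldh1l1 at 7.503. The other radial glia markers were Sox9 at 7.97, Pax6 at 7.49, Hes5 at 7.37 and Nes at 6.62. Microglia markers ran from C1qa at 5.40 to Cx3cr1 at 6.98, and endothelial markers from Cldn5 at 5.69 to Cdh5 at 6.545. The oligodendrocyte markers were Mbp at 5.60 and Sox10 at 6.37, and ependymal markers ran from Tekt1 at 5.11 to Foxj1 at 5.50. Detection calls were not used, so such values may hold background signal. Probe sets differ in their affinity, so these levels are not ranked against each other. In bulk tissue of this kind, fewer cells of a type and less RNA per cell cannot be told apart.

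Prdm16 itself was at 7.62, 7.57 and 7.23 in WT replicates 1, 2 and 3 and at 6.995, 7.34 and 6.998 in the HET replicates. HET replicate 2 lay above WT replicate 3, so the groups overlapped. The difference was -0.36 on the log2 scale (SE 0.18, 95% interval -0.76 to 0.04), with an adjusted p of 0.993 by limma. KO arrays were at 5.69, 6.41 and 6.17, and the gene fell by 1.38 there (limma adjusted p = 0.010). The position of the Prdm16 probes relative to the LacZ insertion was not analysed here, so the probe set may also read RNA from the disrupted allele. The neighbours of Prdm16 on its chromosome lay close to 0. Of the 5 measured genes on each side, 7 lay higher and 3 lower, between Arhgef16 at -0.13 and Mmel1 at 0.19, with a median of 0.02. Within 20 genes on each side the median was 0.03, and 24 of 40 lay higher.

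The 5 lowest unadjusted p-values included 4 genes with low values in every HET array and also in KO. Ccdc190 was at 6.42, 6.51 and 6.65 in WT and at 5.98, 6.07 and 5.80 in HET, a difference of -0.57 (SE 0.09). Fam171b, which encodes a membrane protein, was at 10.07, 10.10 and 9.97 in WT and at 9.55, 9.65 and 9.70 in HET, a difference of -0.41 (SE 0.08). Neither gene had an overlap between the genotypes, and both lay further down in KO, at -1.21 and -0.80. Pdk4, a kinase that switches off pyruvate dehydrogenase and so spares glucose, was at 8.43, 8.56 and 8.41 in WT and at 7.93, 8.19 and 8.02 in HET. Its difference was -0.42 (SE 0.09), again without overlap, against -1.87 in KO. Plagl1, an imprinted zinc finger gene that restrains proliferation, was at 8.80, 8.75 and 8.66 in WT and at 8.25, 8.25 and 8.21 in HET, a difference of -0.50 (SE 0.11). The HET values of Plagl1 lay below all WT values, those of replicates 1 and 2 being identical, and its KO difference was -1.18. All 4 genes were chosen by a small p, which favours groups without overlap, and their KO differences use the same WT arrays. Neither property is therefore separate support. H2-M10.4, a gene of the major histocompatibility complex measured near the lower end of the scale, differed by -0.49 (SE 0.10) in HET and by -0.04 in KO.

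**Figure D1:**
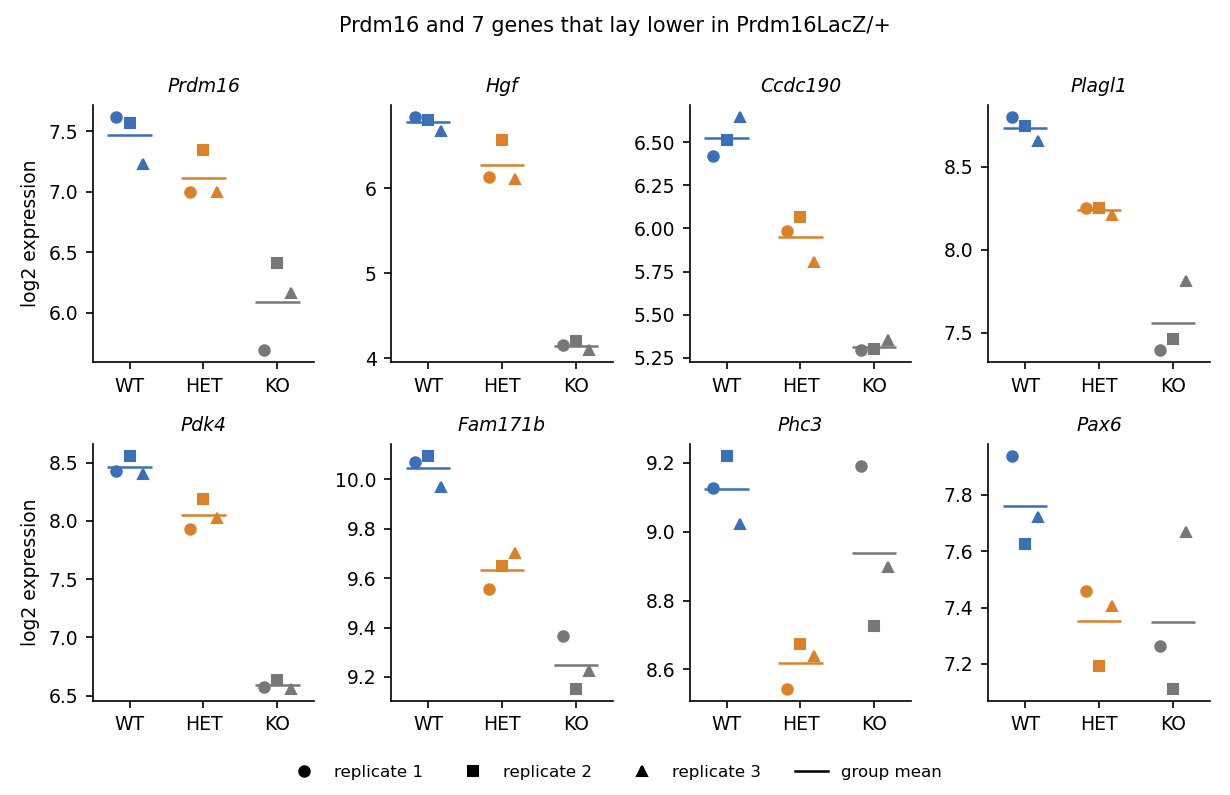
Log2 expression (vertical axis, a separate scale for each gene) of Prdm16 and 7 genes with lower HET means in the WT, HET and KO arrays (horizontal axis), with 1 point per array and a line at the group mean. Prdm16 overlaps between WT and HET, while the 3 HET arrays of Plagl1 (8.25, 8.25 and 8.21) all sit below the WT arrays, and Phc3 sits lower in HET than in KO.

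Hgf encodes hepatocyte growth factor, a secreted ligand of the MET receptor. It was at 6.85, 6.81 and 6.68 in WT and at 6.14, 6.57 and 6.12 in HET. All HET arrays lay below all WT arrays, HET replicate 2 nearest to them. The difference was -0.50 (SE 0.12), and in KO the gene fell by 2.63. Phc3, a subunit of Polycomb repressive complex 1, was at 9.13, 9.22 and 9.02 in WT and at 8.54, 8.67 and 8.64 in HET, a difference of -0.51 (SE 0.11) against -0.19 in KO. The HET arrays of Phc3 were lower than every WT and every KO array. Pax6, a transcription factor that keeps cortical radial glia in their state, was at 7.94, 7.62 and 7.72 in WT and at 7.46, 7.19 and 7.40 in HET, without overlap. The difference for Pax6 was -0.41 (SE 0.14) in HET and also -0.41 in KO. Phc3 and Pax6 were among the 12 largest negative differences, chosen for groups without overlap, so that property is no finding for them.

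Other genes with the largest negative differences among those above the median level included carriers and glial receptors. Crym, a cytosolic binder of thyroid hormone, differed by -0.54 (SE 0.21) and Slco1c1, a carrier of thyroxine, by -0.50 (SE 0.18). Mertk, a receptor with which astrocytes and microglia engulf debris, differed by -0.47 (SE 0.16). Luzp2 differed by -0.47 (SE 0.17), the actin regulator Phactr2 by -0.51 (SE 0.15) and the dynein light chain Tctex1d2 by -0.41 (SE 0.10). Phxr4 had the lowest difference of these, -0.88 (SE 0.25), with WT values of 8.70, 8.18 and 8.04 and HET values of 7.99, 7.34 and 6.95. All of these genes had HET arrays below WT arrays, the property by which they were chosen, so that property is no finding. The limma adjusted p was 0.993 for each of them.

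The 12 largest positive differences were chosen in the same way. Crabp1, a cytosolic binder of retinoic acid, was at 8.36, 9.10 and 9.38 in WT and at 9.91, 9.61 and 10.78 in HET, a difference of 1.15 (SE 0.50). Sst, the precursor of somatostatin in interneurons, was at 7.18, 7.35 and 7.45 in WT and at 7.83, 7.79 and 9.04 in HET, a difference of 0.90 (SE 0.27). HET replicate 3 was the highest array for both. Arxes1 differed by 1.03 (SE 0.34), Magee1 by 0.67 (SE 0.17) and Prkar1b, a regulatory subunit of protein kinase A, by 0.61 (SE 0.18). Hpca, a calcium sensor of neurons, differed by 0.55 (SE 0.19) and Dpp10, an auxiliary subunit of potassium channels, by 0.51 (SE 0.18). Gatm, the first enzyme of creatine synthesis, was at 6.51, 6.95 and 6.77 in WT and at 7.34, 7.39 and 7.10 in HET, a difference of 0.54 (SE 0.16). Here HET replicate 3 was the lowest of the HET arrays.

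Veph1, a pleckstrin homology protein named for the ventricular zone, was at 6.05, 5.68 and 5.73 in WT and at 6.34, 6.49 and 6.29 in HET. The 3 HET values were all above the WT values, and the difference was 0.55 (SE 0.12), with 0.83 in KO. Prkar1a, another regulatory subunit of protein kinase A, differed by 0.38 (SE 0.09) and Ube2j2, a ubiquitin-conjugating enzyme of the endoplasmic reticulum, by 0.35 (SE 0.08). Cdo1, which oxidizes cysteine, and Riox1, a ribosomal oxygenase, both differed by 0.51 (SE 0.18 and 0.16).

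The differences depended on a gene's level. Of the 9969 genes above the median level, 60.8% lay higher in HET, with a median difference of 0.03. Among the dimmer genes 42.2% lay higher, with a median of -0.02. Of the 3988 brightest genes, 1 in 5 of all, 68.1% lay higher. Their mean deviation from WT was -0.04, 0.13 and 0.07 in HET replicates 1, 2 and 3, so HET replicates 2 and 3 carried it and replicate 1 lay on the other side. Lists of abundant housekeeping genes are therefore set beside these brightest genes below.

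**Figure D2:**
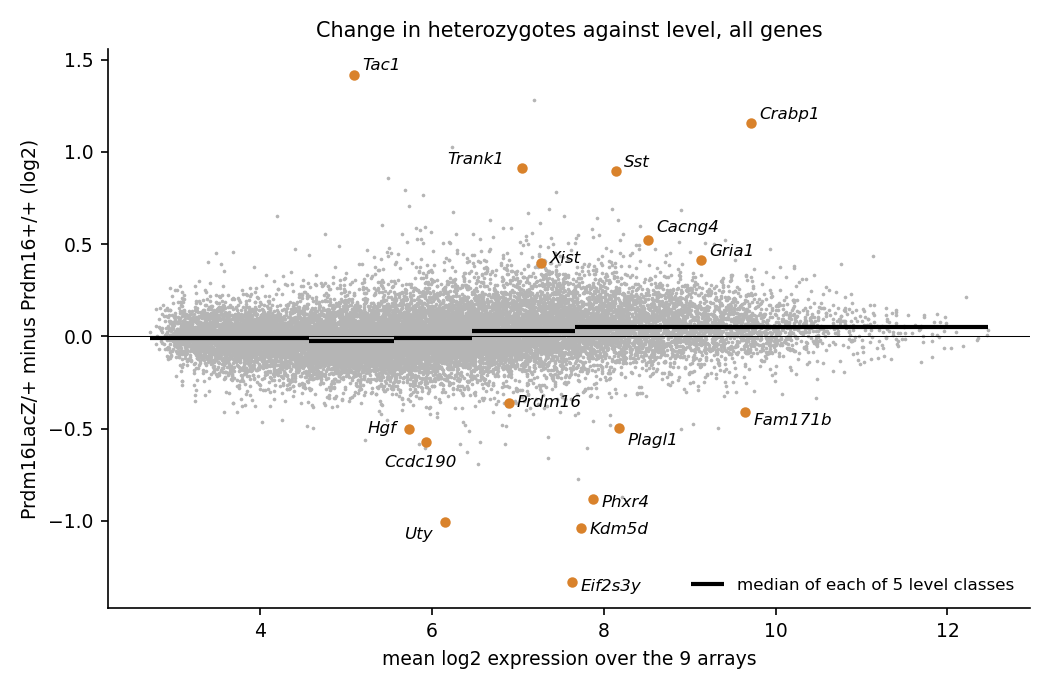
HET minus WT on the log2 scale (vertical axis) against the mean log2 expression over the 9 arrays (horizontal axis) for 19938 genes, 1 grey point each, with named genes in orange and black bars at the median of each of 5 equal classes of genes by level. The bars lie between -0.03 and 0.05, and Eif2s3y at -1.33 and Tac1 at 1.42 mark the ends of the range.

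The 90 genes called in KO against WT, 0.451% of all genes, were read in HET as values only, because both comparisons share the WT arrays. The 57 genes that fell in KO had a median of -0.90 there and of -0.18 in HET, where single genes ranged from -0.57 to 0.15. The 33 genes that rose in KO had medians of 0.85 in KO and 0.23 in HET, with a range from -0.23 to 0.90 in HET. Mt2, a metallothionein that binds zinc and copper, stood at 10.22, 10.21 and 10.18 in WT and at 10.11, 10.07 and 10.02 in HET. Its difference was -0.14 (SE 0.11) in HET against -1.92 in KO. Moxd1, a copper-dependent monooxygenase, differed by 0.15 (SE 0.23) in HET against 1.90 in KO, and its HET arrays overlapped with WT. Values in HET nearer to those in KO were measured, among others, for Sst, at 0.90 against 1.53, and for Sv2c, a synaptic vesicle protein, at 0.53 against 1.09. The HET mean of Sst leaned on replicate 3, at 9.04 against 7.83 and 7.79 in replicates 1 and 2. Further such genes were Veph1, at 0.55 against 0.83, Slc7a11, at -0.56 against -0.95, and Fam171b, at -0.41 against -0.80. Sv2c was at 5.27, 5.34 and 5.40 in WT and at 5.66, 5.88 and 6.05 in HET, with no overlap. Ptx3, a secreted pentraxin, differed by 0.32 (SE 0.10), Has2, a hyaluronan synthase, by 0.30 (SE 0.10), and Npy, the precursor of neuropeptide Y, by 0.45 (SE 0.19). Pdzrn3 and Ano1, a calcium-activated chloride channel, differed by 0.19 (SE 0.13) and 0.40 (SE 0.19), and Scrg1 by 0.39 (SE 0.19). On the falling side Capsl differed by -0.29 (SE 0.22), Ogn, a small leucine-rich proteoglycan, by -0.32 (SE 0.19), and Papss2, which supplies sulfate for proteoglycans, by -0.27 (SE 0.11). Cacna2d1, a calcium channel subunit, differed by -0.43 (SE 0.23).

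**Figure D3:**
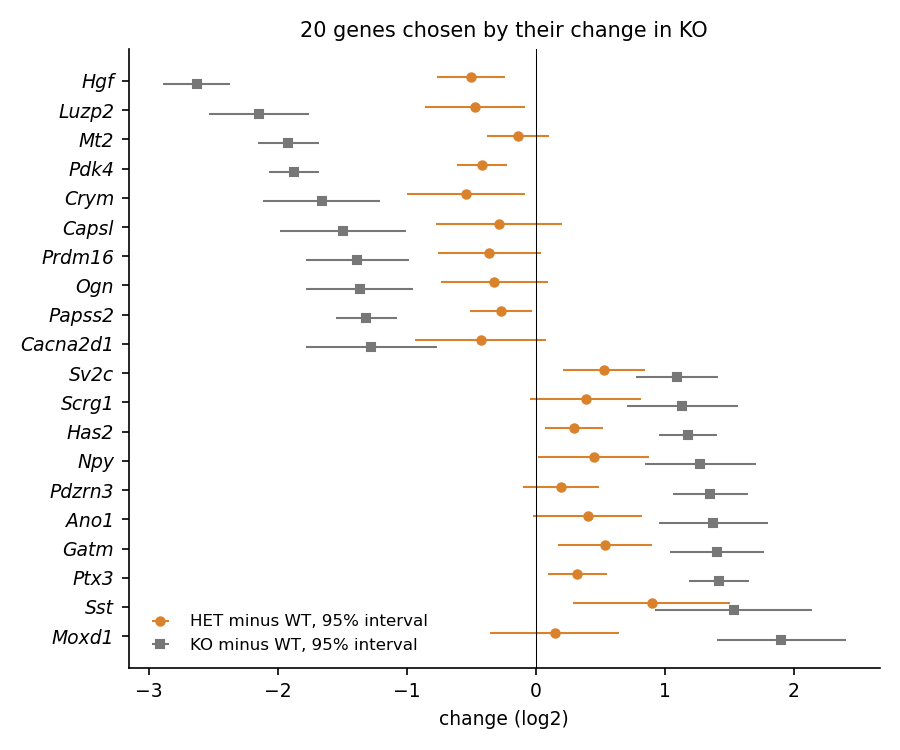
Differences on the log2 scale (horizontal axis) for the 10 largest falls and the 10 largest rises among genes called in KO (vertical axis), with HET minus WT as orange circles and KO minus WT as grey squares, each with its 95% interval. Mt2 stands at -0.14 in HET and -1.92 in KO, Moxd1 at 0.15 and 1.90, and Sst at 0.90 and 1.53; the comparisons share the WT arrays.

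Genes of the stem and progenitor cells lay on both sides of 0. Of 29 radial glia genes 12 lay higher and 17 lower in HET, with a median of -0.02, and 11 of the 15 transcription regulators among them lay lower. These 15 regulators had a median of -0.03 and mean deviations of -0.06, -0.002 and -0.18 in HET replicates 1, 2 and 3. Of all 19938 genes 9654 lay lower. Without HET replicate 2 the radial glia split was 5 higher and 24 lower (median -0.06), and without HET replicate 3 it was 15 higher and 14 lower (median 0.01). Of the 29 genes, 2 had an unadjusted limma p under 0.05 on the higher side (Veph1 and Ednrb, the endothelin B receptor, at 0.29) and 1 on the lower side (Pax6). Over all genes 2.4% had such a p on the higher side and 1.66% on the lower side. Of 11 genes of cortical intermediate progenitors 7 lay lower, with a median of -0.05. Neurog1, a proneural factor, was at 5.24, 5.30 and 5.37 in WT and at 5.15, 4.85 and 5.01 in HET, a difference of -0.30 (SE 0.09) without overlap. The 24 genes of ventral forebrain progenitors and neuroblasts were divided evenly, 12 higher and 12 lower, and none had an unadjusted limma p under 0.05. The lowest p among them was for Etv1, a transcription factor of dopaminergic olfactory neurons, at -0.33 (SE 0.15). Of 42 cell cycle genes 25 lay lower, with a median of -0.02. Of the 23 mitosis genes 18 lay lower, with a median of -0.06, and of the 19 S phase genes 12 lay higher, with a median of 0.03. The mean deviation of the mitosis genes was -0.03, 0.05 and -0.22 in HET replicates 1, 2 and 3, so HET replicate 3 lay lowest. In WT replicates 1, 2 and 3 it was 0.07, 0.02 and -0.09. For the S phase genes it was -0.03, 0.12 and -0.09 in the HET arrays. Diaph3, a formin of the cytokinetic furrow, was at 6.99, 6.91 and 6.96 in WT and at 6.65, 6.73 and 6.38 in HET, without overlap and with a difference of -0.37 (SE 0.09).

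Glial lists were mixed too. Of 15 astrocyte genes 7 lay higher and 8 lower, with a median of -0.03, which was 0.08 without HET replicate 3. Gfap, the intermediate filament of astrocytes, was at 5.07, 4.81 and 5.04 in WT and at 4.73, 4.67 and 4.42 in HET, a difference of -0.36 (SE 0.11) at a level near the lower end of the scale. Gja1, a gap junction channel, differed by 0.32 (SE 0.21) in HET and by -1.03 in KO. In the oligodendrocyte lineage Pdgfra, the growth factor receptor of its precursors, was at 5.79, 6.04 and 5.98 in WT and at 6.10, 6.38 and 6.40 in HET, a difference of 0.36 (SE 0.10). Olig1, a lineage regulator, differed by 0.22 (SE 0.08), also without overlap, while 6 of the list's 12 genes lay higher and 6 lower. Pdgfra is equally a marker of meningeal fibroblasts, whose list of 18 genes had 7 higher and 11 lower and a median of -0.03.

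Neuronal receptor genes varied widely among the HET arrays. The 13 receptor subunits for GABA and glycine, which carry inhibitory transmission, had a median of 0.29, and 12 of them lay higher and 1 lower in HET. None had an unadjusted limma p under 0.05 on the higher side, against 2.4% of all genes. The list's mean deviation from WT was -0.12 in HET replicate 1, 0.30 in replicate 2 and 0.59 in replicate 3. Gabra5, a GABA receptor subunit, was at 7.15, 7.29 and 6.82 in WT and at 6.75, 7.91 and 8.95 in HET, a difference of 0.78 (SE 0.50). Its HET replicate 1 was the lowest of the 6 arrays and replicate 3 the highest. Without HET replicate 3 the list's median was 0.12. Gabra3 differed by 0.39 (SE 0.19) and Glrb, the anchoring subunit of glycine receptors, by 0.29 (SE 0.14). Glra1, measured near the lower end of the scale, was the 1 member that lay lower, at -0.20 (SE 0.08).

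The 28 glutamate receptor genes had a median of 0.16, with 20 higher and 8 lower. Without HET replicate 2 the median was 0.09. In the full fit 2.4% of all genes had an unadjusted limma p under 0.05 on the higher side and 1.66% on the lower side. Of the 28 glutamate receptor genes 5 had such a p on the higher side and 0 on the lower side. Most of these belonged to the 12 AMPA receptor subunits and auxiliaries, of which 11 lay higher and 4 had such a p, with a median of 0.18. All 12 lay above the median level, and 8 belong to the 3988 brightest genes, of which 68.1% lay higher and 4.91% had such a p on either side. Mean deviations in HET replicates 1, 2 and 3 were 0.04, 0.30 and 0.33 for these 12 genes. For the whole list of 28 they were -0.03, 0.28 and 0.32. Gria1, a pore subunit, was at 8.71, 8.71 and 8.79 in WT and at 9.04, 9.23 and 9.19 in HET, a difference of 0.41 (SE 0.10) in HET and 0.77 in KO. Cacng4, an auxiliary subunit that slows channel closing, was at 8.17, 8.38 and 8.18 in WT and at 8.50, 8.87 and 8.93 in HET, a difference of 0.52 (SE 0.12) and of 0.27 in KO. Both genes had all HET arrays above all WT arrays, HET replicate 1 being the lowest of them. For Cacng4 that property was part of how it was chosen. Cnih2, a cornichon that escorts AMPA receptors to the surface, differed by 0.40 (SE 0.14) with overlap. The metabotropic receptor Grm5 was at 7.86, 7.74 and 7.86 in WT and at 7.54, 8.77 and 9.21 in HET, a difference of 0.69 (SE 0.35), and Grm3 differed by 0.69 (SE 0.42). In both, HET replicate 1 was the lowest of the 6 arrays.

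The 10 genes above the median level with the largest spread over the HET arrays included Grm5, Grm3, Gabra5 and 7 others. Cntn1, an adhesion molecule of axons, was at 7.86, 7.74 and 7.81 in WT and at 7.38, 8.68 and 9.27 in HET. Rgs2, which limits G protein signalling, was at 7.11, 6.73 and 7.15 in WT and at 6.43, 8.10 and 8.14 in HET. Lrrc4c, a synaptic adhesion ligand, was at 8.16, 8.02 and 7.99 in WT and at 7.32, 8.68 and 9.18 in HET. In all 3 genes HET replicate 1 lay below every WT array, and HET replicates 2 and 3 above. Rarb, a retinoic acid receptor of striatal neurons, Rit2, a small GTPase of neurons, and Trank1 had their lowest HET value in replicate 1 too, at 7.46, 5.92 and 6.72, and their highest in replicate 3, at 9.48, 7.87 and 8.52. Ttr, the thyroxine carrier of the choroid plexus, was the exception, with HET values of 6.08, 8.16 and 5.53, high in replicate 2 only. The choroid plexus list of 13 genes had a mean deviation of 0.02, 0.07 and -0.12 in the same arrays. Tac1, the precursor of substance P in striatal neurons, was at 4.40, 4.65 and 4.45 in WT and at 4.39, 5.29 and 8.07 in HET, so that its difference of 1.42 (SE 0.75) rested on HET replicate 3. The 14 neuropeptide genes had a median of 0.06.

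Without HET replicate 1 the comparison still called 0 genes, and the smallest limma adjusted p was 0.0535. That fit had 2280 genes with an unadjusted limma p under 0.05, 1444 higher (7.24% of all genes) and 836 lower (4.19%). By this reading 13 of 28 glutamate receptor genes lay higher with such a p and 0 lower, and 8 of 13 GABA and glycine receptor genes higher and 1 lower, with list medians of 0.31 and 0.49. Arhgdib, known from blood cells, had the smallest adjusted p. It was at 5.97, 6.01 and 5.84 in WT and at 5.97, 6.80 and 7.06 in HET, and differed by 0.99 (SE 0.10) without HET replicate 1 against 0.67 (SE 0.22) with it. Rgs2 followed at 1.13 (SE 0.12, limma adjusted p = 0.0749), then Plk2, a kinase of synaptic scaling, at 0.92 (SE 0.12, limma adjusted p = 0.132). The same adjusted p of 0.132 held for Enc1, a neuronal Kelch protein, at 0.73 (SE 0.10), Reln, the extracellular cue for migrating neurons, at 0.94 (SE 0.15), and Cacng3, another AMPA receptor auxiliary, at 0.77 (SE 0.12). Arhgdib, Plk2, Enc1, Reln and Cacng3 were picked after their values were seen, and leaving out the HET array that stood furthest from the other 2 narrows the spread of HET by construction. Leaving out WT replicate 1 as well, the other array with high Xist, gave 0 called genes, 1630 with an unadjusted limma p under 0.05 and a smallest adjusted p of 0.313.

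**Figure D4:**
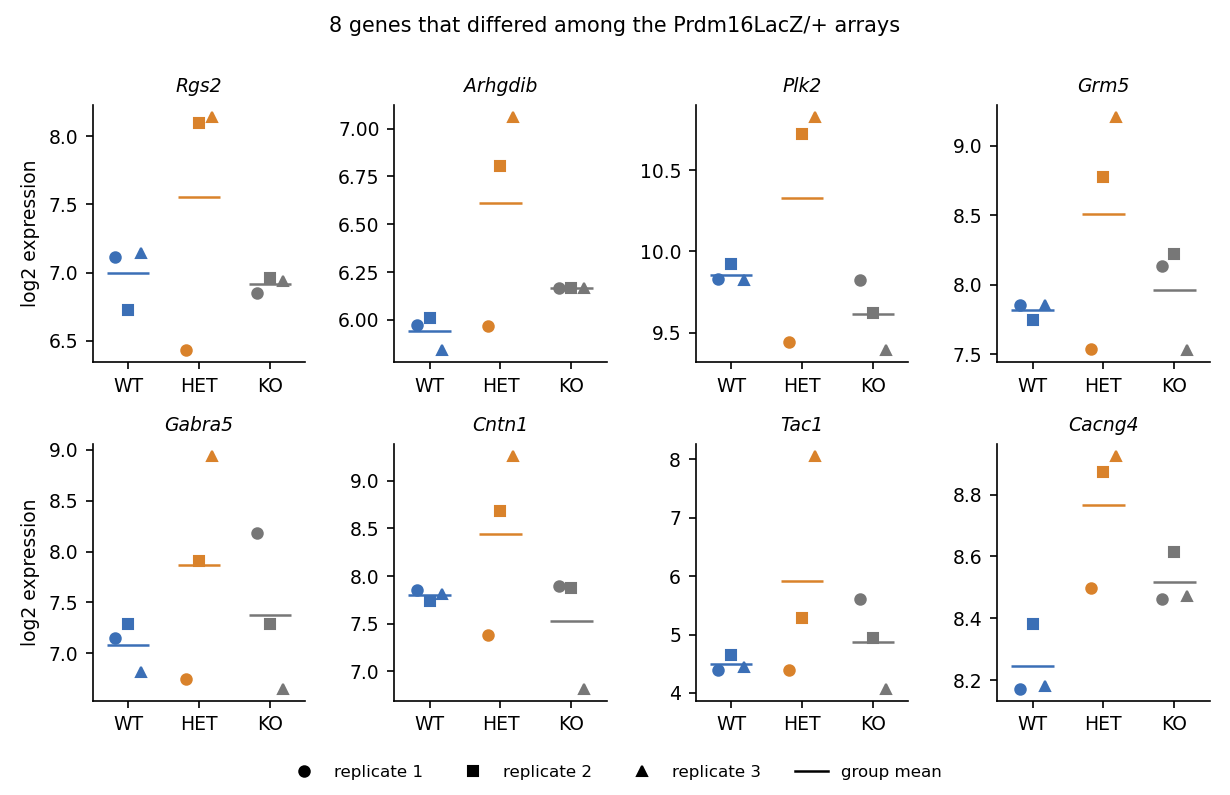
Log2 expression (vertical axis, a separate scale for each gene) of 8 genes in the WT, HET and KO arrays (horizontal axis), with 1 point per array, its shape giving the replicate number, and a line at the group mean. HET replicate 1 sits at 6.43 for Rgs2 and 7.38 for Cntn1, below the WT arrays, while HET replicates 2 and 3 sit above them; Tac1 reaches 8.07 in replicate 3 only.

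Of 24 genes of postmitotic neurons 16 lay higher and 8 lower, with a median of 0.05. Without HET replicate 3 they were 12 higher and 12 lower. The general markers Tubb3, Dcx and Map2 differed by 0.05, -0.06 and -0.01, and Stmn2 by 0.14. Of the 15 cytoskeletal and synaptic genes 12 lay higher and 3 lower, with a median of 0.14 and mean deviations of -0.07, 0.18 and 0.29 in HET replicates 1, 2 and 3. Rbfox3, a splicing regulator of mature neurons, was at 7.34, 7.39 and 7.16 in WT and at 7.45, 7.71 and 8.01 in HET, a difference of 0.43 (SE 0.14). Ina, an intermediate filament of neurons, was at 9.82, 9.81 and 9.83 in WT and at 9.79, 10.37 and 10.43 in HET. HET replicate 1 again lay at the WT level for Ina, whose difference was 0.38 (SE 0.15). The 9 genes of cortical neuron identity were split, 4 higher and 5 lower. Tbr1, a transcription factor of deep layer cortical neurons, was at 6.53, 6.23 and 6.26 in WT and at 5.93, 5.70 and 6.11 in HET. It lay lower in every HET array, by -0.42 on average (SE 0.13), and differed by -0.66 in KO. Of 38 axon guidance genes 23 lay higher, with a median of 0.09, among them Epha4 at 0.33 (SE 0.13) and Plxna1 at 0.24 (SE 0.09), both receptors of repulsive cues. Dner, a neuronal Notch ligand, was at 7.35, 7.47 and 7.32 in WT and at 7.59, 8.06 and 8.002 in HET, a difference of 0.50 (SE 0.12) without overlap, while the 26 Notch genes had a median of -0.01.

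**Figure D5:**
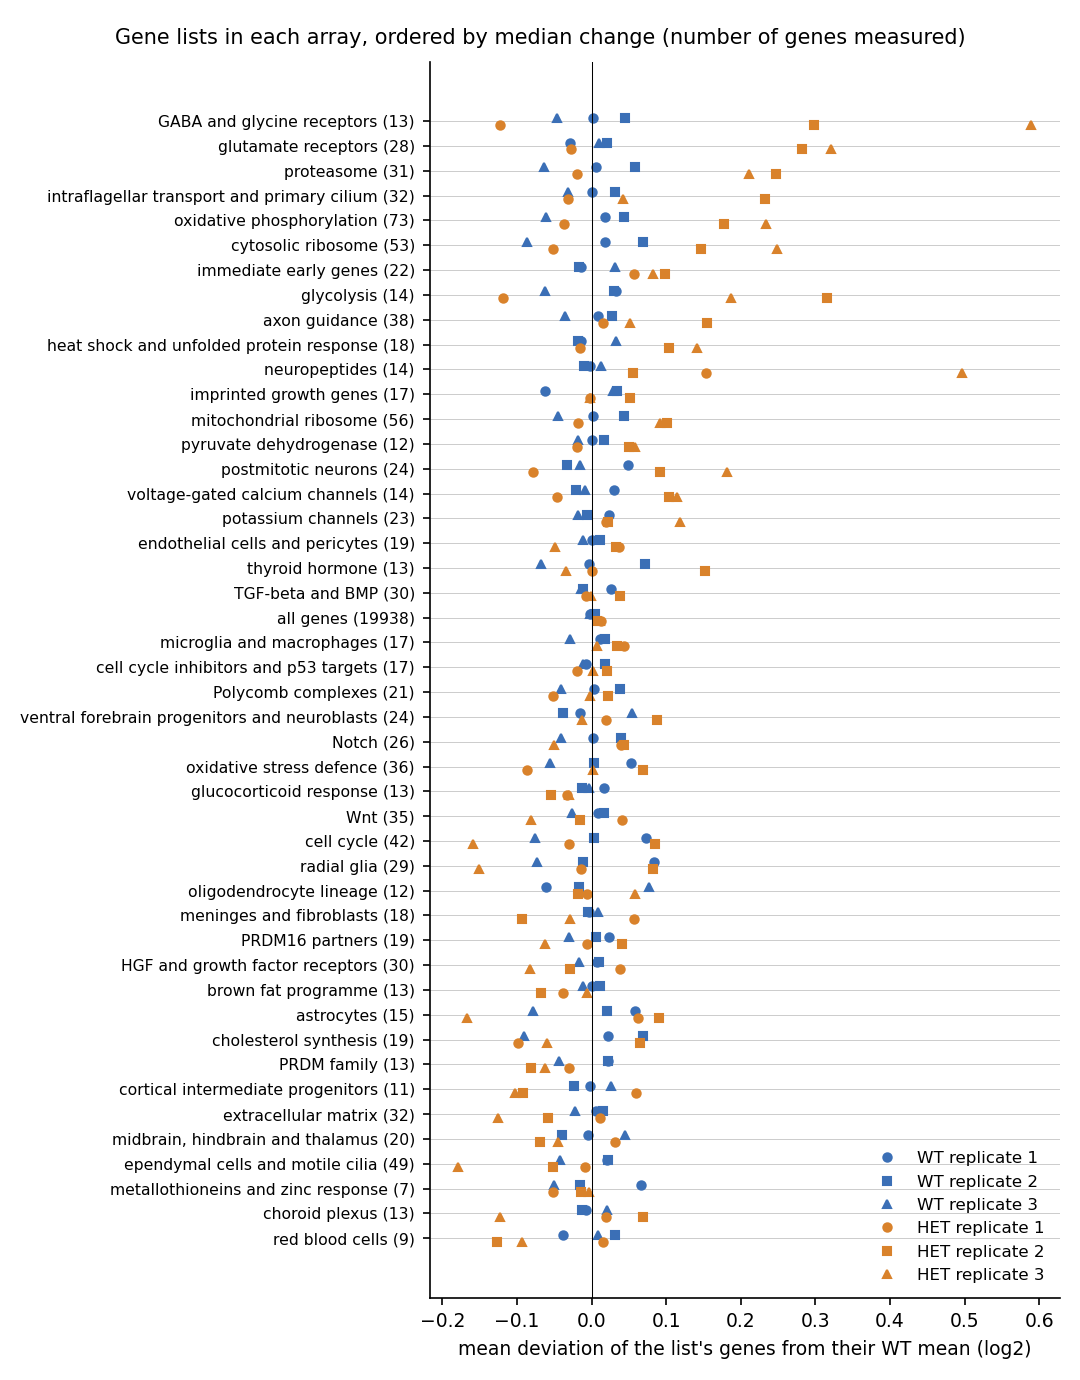
Mean deviation from the WT mean on the log2 scale (horizontal axis) for the genes of each list (vertical axis, with the number measured), 1 point per array, blue for WT and orange for HET, the shape giving the replicate. The GABA and glycine receptors spread from -0.12 in HET replicate 1 to 0.59 in replicate 3, and the motile cilia genes reach -0.18 in replicate 3.

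Lists of abundant housekeeping genes lay higher in HET as well. Of 73 oxidative phosphorylation genes, the respiratory chain and ATP synthase of mitochondria, 67 lay higher and 6 lower, with a median of 0.11. Among the 73 genes 6 had an unadjusted limma p under 0.05, all higher. Such a p was found on the higher side for 2.4% of all genes, and on either side for 4.91% of the 3988 brightest. Of 31 proteasome genes 29 lay higher and 2 lower, with a median of 0.14. Of 53 cytosolic ribosomal protein genes 48 lay higher and 5 lower, with a median of 0.11. In these lists 48, 27 and 49 genes belong to the 3988 brightest genes, of which 68.1% lay higher with a median of 0.05. The mean deviations in HET replicates 1, 2 and 3 were -0.04, 0.18 and 0.23 for oxidative phosphorylation, -0.02, 0.25 and 0.21 for the proteasome and -0.05, 0.15 and 0.25 for the ribosome. HET replicate 1 thus lay at or below the WT mean for all 3 lists. After quantile normalization of the deposited values the medians were 0.07, 0.08 and 0.06. Without HET replicate 3 the ribosome median was 0.02. Single members included Ndufb8 of complex I, at 7.02, 7.10 and 7.32 in WT and at 7.36, 7.63 and 7.52 in HET, a difference of 0.35 (SE 0.12). Psmd2, a subunit of the proteasome cap, differed by 0.28 (SE 0.10), and Rps12 and Rplp1 of the ribosome by 0.37 (SE 0.13) and 0.33 (SE 0.11). Ribosomal protein genes have near-identical copies in the genome, so their probe sets may read more than 1 gene. Of 56 mitochondrial ribosome genes 38 lay higher, with a median of 0.05, and Mrps23 lay lower, at -0.39 (SE 0.13).

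Genes of motile cilia, which ependymal cells and their precursors express, lay slightly lower. Of 49 such genes 5 lay higher and 44 lower, with a median of -0.07. Only 1 had an unadjusted limma p under 0.05, Ak7 on the lower side, against 1.66% of all genes on that side. Ak7, an adenylate kinase of the axoneme, was at 5.68, 5.92 and 5.82 in WT and at 5.50, 5.18 and 5.38 in HET, without overlap and with a difference of -0.46 (SE 0.12) against -0.53 in KO. The 10 regulators of the multiciliated fate all lay lower, between -0.14 and -0.01. The list's mean deviation was -0.01, -0.05 and -0.18 in HET replicates 1, 2 and 3, and without HET replicate 3 its median was -0.01, with 17 genes higher and 32 lower. Of the 49 genes 12 lay above the median level and 2 belong to the brightest class. Among all the dimmer genes 42.2% lay higher, with a median of -0.02. Intraflagellar transport genes, which build every cilium, had a median of 0.12, with 22 of 32 higher, and their deviation was largest in HET replicate 2, at 0.23. Without that array 16 lay higher and 16 lower, and the median was 0.0012. Kif3a, a kinesin subunit that carries the transport particles, differed by 0.30 (SE 0.11).

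Most extracellular matrix genes lay slightly lower. Of 32 genes 26 lay lower and 6 higher, with a median of -0.06 and mean deviations of 0.01, -0.06 and -0.13 in HET replicates 1, 2 and 3. Vcan, the proteoglycan versican, was at 10.17, 9.96 and 9.96 in WT and at 9.61, 9.88 and 9.70 in HET, a difference of -0.30 (SE 0.11). Has2 lay higher, as given above. In the oxidative stress list 17 of 36 genes lay higher and 19 lower, with a median of -0.01. Slc7a11, the cystine importer that feeds glutathione synthesis, was at 5.98, 5.38 and 5.82 in WT and at 5.39, 5.03 and 5.07 in HET, a difference of -0.56 (SE 0.16) with overlap, against -0.95 in KO. Nfe2l2, the transcription factor NRF2 that induces antioxidant enzymes, was at 6.60, 6.81 and 6.45 in WT and at 6.41, 6.31 and 5.97 in HET. Its arrays did not overlap, and it differed by -0.39 (SE 0.12) in HET and -0.44 in KO. Sod2, the mitochondrial superoxide dismutase, lay higher, at 0.32 (SE 0.13).

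Lists of regulators and signalling genes had medians close to 0, with members on both sides. Of 13 genes of the PRDM family, Prdm16 included, 10 lay lower and 3 higher, with a median of -0.04. Of 19 partners of PRDM16, 13 lay lower, with a median of -0.03, and Skil, a repressor of SMAD signalling, lay higher at 0.26 (SE 0.11). The 13 brown fat genes had a median of -0.03. Of 10 genes of the HGF axis 6 lay lower, with a median of -0.02, and Hgf had the only unadjusted limma p under 0.05 among them. In TGF-beta and BMP signalling 16 of 30 genes lay higher, among them the ligand Bmp2 at 0.24 (SE 0.08), and the ligand Tgfb3 lay lower at -0.28 (SE 0.12). None of 35 Wnt genes had an unadjusted limma p under 0.05, and their median was -0.02. In the imprinted growth network of 17 genes, Plagl1 lay lower and Ndn, the growth suppressor necdin, higher at 0.45 (SE 0.18), with a median of 0.05. Of the thyroid hormone genes, Rxrg, a retinoid X receptor that pairs with the hormone's receptors, was at 5.75, 5.71 and 5.74 in WT and at 5.75, 6.42 and 6.80 in HET, so that HET replicate 1 lay at the WT level. Its difference was 0.59 (SE 0.22), opposite in sign to those of Crym and Slco1c1.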

How the data were processed

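The authors deposited log2 expression values for 28940 probe sets on 9 Affymetrix Mouse Gene ST 1.0 arrays. RMA, affy and limma are named, with no version, in the submitters' processing notes. The annotation and genome build of that step are not given in the sources used here. Per the labels' protocols, a NuGEN kit amplified the RNA before biotin labelling. RMA pools information across arrays, so its values are not fully independent, and detection calls were not used here. The number of arrays limits the precision.

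Probe sets were named from the platform's annotation: 21789 had 1 symbol, 1621 several and 5530 were not listed. For the 999 genes with several probe sets, the one with the highest mean was taken. A GRCm38.p6 gene table gave only the order of neighbouring genes. The fit used R 4.3.3 and limma 3.58.1 (lmFit, eBayes, two-sided) on all 9 arrays with a mean per genotype, without filter or further normalization, and with Benjamini-Hochberg adjustment over 19938 genes. Unadjusted limma p-values serve only to count genes. The code was tested on simulated data.

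The comparison and its 46 gene lists were chosen with earlier results of these data known. Genes named are Prdm16 and Hgf, and, passing over predicted, clone, olfactory and small RNA genes, the 10 smallest unadjusted p-values; the 12 largest differences each way among genes above the median level whose groups did not overlap; up to 3 genes with the smallest p of each list; the 10 largest falls and rises in KO; the 10 largest SDs over HET arrays above the median level; and 5 neighbours each side of Prdm16. Same-numbered WT and HET arrays had deviations that correlated at 0.01, 0.06 and 0.05 across genes, so the numbers were not taken to pair the arrays.

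Alternatives were a replicate block, a fit of the 6 WT and HET arrays, robust eBayes with a trend, weights per array, leaving out the dimmest 1 in 3 genes, averaging a gene's probe sets, testing every probe set, quantile normalization, median centring, Xist as a covariate, an adjusted p under 0.1 and each array left out in turn. A fit without the WT and HET arrays of high Xist was added after seeing the data.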

Additional observations from a re-analysis of the deposited data

How the results depend on the processing

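No setting called a gene in HET against WT, at an adjusted p under 0.05 or under 0.1, except that without HET replicate 1 the looser limit was met by 2 genes, Arhgdib and Rgs2. The smallest limma adjusted p lay between 0.0535, without HET replicate 1, and 1. The fit with the replicate number as a block called 0 genes, with a smallest adjusted p of 0.705 and 704 genes at an unadjusted p under 0.05. That count, 808 in the fit reported, was 1749 with array weights, 474 without WT replicate 1, 2280, 520 and 478 without HET replicates 1, 2 and 3, and 1630 without both arrays of high Xist, a fit chosen after seeing the data. Why it moved was not tested. The count of genes whose HET and WT arrays do not overlap was 1366, and 2160 after quantile normalization. The higher side made up 59.2% of the 808 genes, against 49.7% over every probe set. Prdm16 lay lower in HET and uncalled in every setting run. With single arrays left out, 4 differences reversed their sign: Ttr ran from -0.279 without HET replicate 2 to 1.03 without HET replicate 3, and from HET replicate 3 to HET replicate 1 left out Lrrc4c ran from -0.0557 to 0.87, Rarb from -0.0153 to 0.994 and Rit2 from -0.166 to 0.81. Of 874 list medians under the alternatives, 49 moved by more than an SD between arrays. That SD was the larger of those of the list's median deviation over the WT and over the HET arrays. A group mean without 1 of its 3 arrays can hardly move so far, so this count is no measure of stability. Of the 874 medians 66, in 22 lists, had the opposite sign to the median reported. In the fits reported these 22 lists had medians of at most 0.09 in size, glycolysis being the largest, and no list median was a call.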
